A study of Drosophila melanogaster with 29 samples.

Results

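The genes eater, NimC1, Sr-CI, Sr-CII, Sr-CIII, crq, drpr and Hml encode the phagocytic and scavenger receptors of Drosophila blood cells and a blood-cell clotting protein. They were chosen by name. Each was read from the probe sets whose annotation named that gene alone, with its symbol updated through its gene number, and from the brightest of them where there were several. These are 8 of the 11982 genes with a probe set of their own. Each of the 8 had 1 such probe set, and all 8 were among the 11677 genes tested. Total RNA came from S2 cells, a blood-cell-like culture line of Drosophila embryos that takes up bacteria and dying cells. It was measured on 29 Affymetrix arrays. The Mock group had 14 arrays of untreated cells. Every other group had 3 arrays of cells kept for 4 days with double-stranded RNA (dsRNA), which directs RNA interference against 1 chromatin protein, namely dKDM2, dRING, PC, PH or PSC. Labelling used 7 µg of RNA for each array, with an RNA integrity number above 8. The proteins dRING, PC, PH and PSC are subunits of the Polycomb repressive complex PRC1, and dKDM2 is a histone demethylase. The study asked how gene expression after each depletion compared with untreated cells. Since Mock cells received no dsRNA, exposure to dsRNA cannot be told apart from the depletion in any comparison with Mock. RNA came from whole cultures, so fewer cells of a type and less RNA per cell cannot be told apart.

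Drosophila blood cells engulf bacteria and the remains of dying cells by binding them with surface receptors, drawing the membrane around them and passing the closed vesicle on to lysosomes. Eater and NimC1 belong to the Nimrod family, which carries EGF-like repeats, and bind bacteria. Sr-CI, Sr-CII and Sr-CIII are class C scavenger receptors, of which Sr-CI was described as a receptor for bacteria in S2 cells. Croquemort, the product of crq, is a class B scavenger receptor related to mammalian CD36 and takes part in the uptake of dying cells. Draper, the product of drpr, is the fly relative of the nematode engulfment receptor CED-1 and serves macrophages and glia. Hml encodes hemolectin, a secreted clotting protein that is widely used as a blood-cell marker and is not a receptor.

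The deposited values were log2 signals, and the values given here are those signals after quantile normalization. The lowest value was 2.27 on every array, and 42.0% of all values lay at this floor, so a fall that reaches it is understated. A gene was called when its limma adjusted p was under 0.05 over all 11677 genes. Replicates are labelled as biological but not tied to separate cultures, so p-values measure only the spread between these arrays, which may be technical. Replicates 1 and 2 of a group correlated at 0.949 to 0.997, and replicates 1 and 3 at 0.906 to 0.963. The RNAi target Sce fell on the dRING arrays from a Mock mean of 8.04 to 3.63, and Pc fell on the PC arrays from 6.60 to 4.39. Psc was higher on the arrays labelled PSC (9.13) than in Mock (6.77), against the label, so these arrays are named by their label only. Psc was also higher than in Mock after dKDM2 (10.24), dRING (9.32), PC (9.54) and PH depletion (11.23), all 4 called by limma. Sce also fell after dKDM2 (5.22) and PH depletion (5.38). The genes for dKDM2 and PH were not analysed here. Spiked-in control transcripts differed between groups as well. The poly-A spikes averaged 2.96 to 7.12 on the Mock arrays, 7.15 to 9.18 on the dKDM2 and 9.09 to 9.61 on the PH arrays, while the dRING, PC and PSC group means were 4.48, 4.58 and 4.23.

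The 8 genes differed in how far their signals lay from the floor in untreated cells. The probe sets for eater, Sr-CI, crq and drpr had Mock means of 7.94, 6.49, 9.25 and 9.57. Hml stood at 3.29, and NimC1, Sr-CII and Sr-CIII stayed within 0.32 of the floor on every Mock array. Sr-CII was at the floor on 21 of 29 arrays and Sr-CIII on 25. S2 cells are labelled as blood-cell derived, yet the signals for NimC1 and Hml, 2 usual markers of mature blood cells, were low in untreated cells. Levels of different probe sets were not compared with one another.

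**Figure D1:**
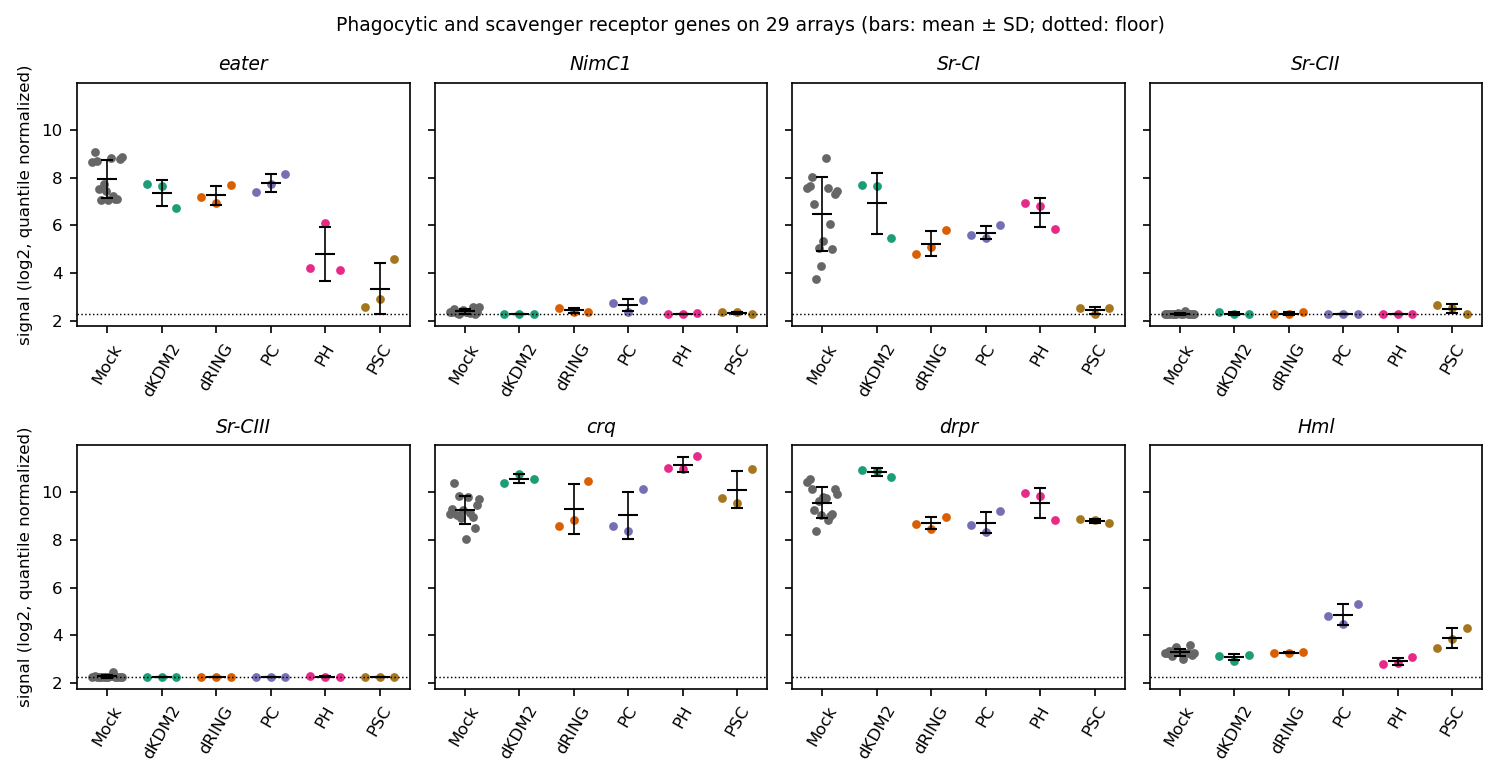
Signal of each of the 8 genes (log2, quantile normalized) on the 29 arrays, with 1 point per array, bars for the group mean ± SD and a dotted line at the floor of 2.27. eater and Sr-CI lie near the floor on arrays labelled PSC, eater is low on the PH arrays, and Hml is higher on the PC arrays than on any Mock array.

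The depletions differed in which of these genes were called. After dKDM2 depletion, crq and drpr rose and no member fell, which made 2 of 8 called, against 33.2% of all genes. After dRING depletion 0 of 8 were called by limma, against 2.77% of all genes, and 1 of the 8, drpr, had an unadjusted p under 0.05 (0.0161). Against Mock replicates 1 to 3 alone, Sr-CI (-2.52, limma adjusted p = 0.0284) and drpr (-1.68, 0.00674) were called lower in dRING. After PC depletion Hml and NimC1 rose, 2 of 8 against 4.55% of all genes. After PH depletion crq rose while eater and Hml fell, 3 of 8 against 35.1%. On the arrays labelled PSC, eater and Sr-CI fell while Hml and Sr-CII rose, 4 of 8 against 16.5%. Over the 5 comparisons with Mock, 11 of 40 tests of these genes were called (27.5%), against 18.4% of the tests over all genes. The median difference over the 8 genes lay between -0.098 and -0.001 in the 5 comparisons, and that over all genes between -0.003 and -0.001. The shares called after dKDM2 and PH depletion were thus near those of all genes.

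**Figure D2:**
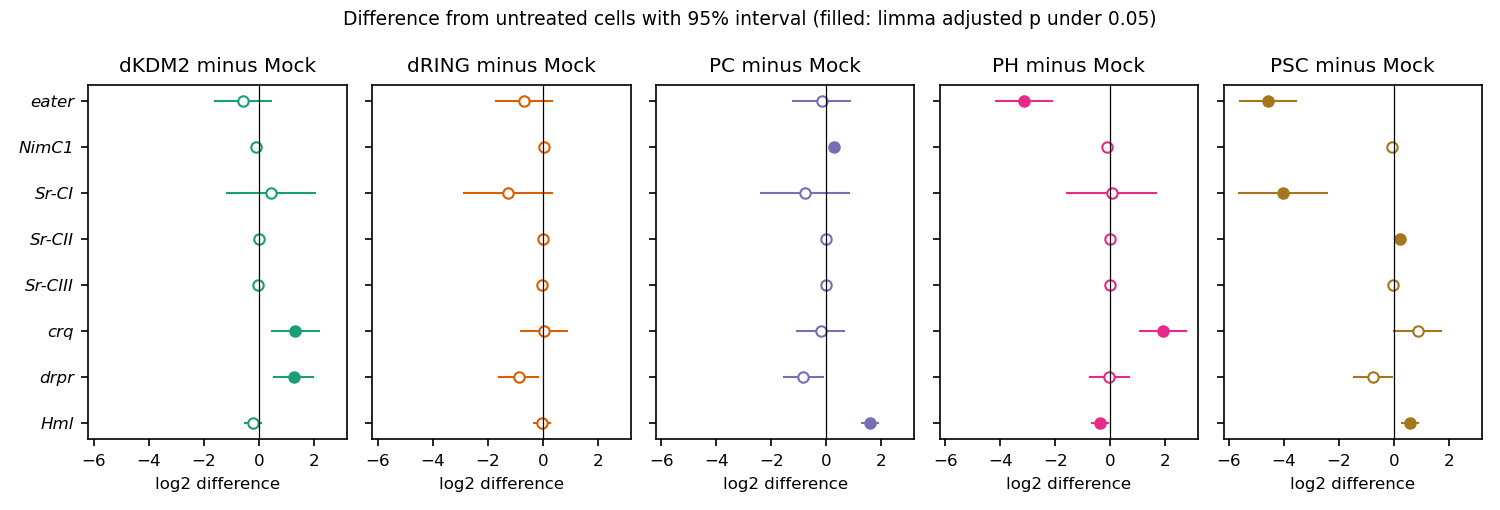
Difference from Mock (log2) of each of the 8 genes after each depletion, with its 95% interval from limma and filled points for limma adjusted p under 0.05. The farthest points are eater (-4.59) and Sr-CI (-4.05) on the arrays labelled PSC and eater (-3.13) on the PH arrays.

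Eater, the Nimrod receptor for bacteria, showed the widest range of group means of the 8 genes, 4.59. On the 14 Mock arrays its signal had a low of 7.06, a median of 7.63 and a high of 9.06. It was 4.21, 6.11 and 4.11 on the PH arrays and 2.56, 2.91 and 4.59 on the arrays labelled PSC. Every array of these 2 groups lay below every Mock array. The share of all genes with every array below Mock was 12% for PH and 4.18% for PSC. The mean was 8.77-fold lower than in Mock after PH depletion (log2 difference -3.13, SE 0.50, limma adjusted p = 2.31e-05) and 24.1-fold lower on the arrays labelled PSC (-4.59, SE 0.50, limma adjusted p = 3.08e-07). Among the 11677 genes this was the 126th lowest difference after PH depletion and the 8th lowest on the arrays labelled PSC. With the poly-A spikes as a covariate, the PH difference was -2.55 and was not called (limma adjusted p = 0.0859). The PH spikes lay above those of every Mock array, so this covariate can hardly be separated from the depletion.

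Eater overlapped its Mock range in the other 3 depletions. It was 7.73, 7.64 and 6.74 on the dKDM2 arrays, 7.18, 6.92 and 7.70 on the dRING arrays and 7.40, 7.74 and 8.16 on the PC arrays. These ranges overlapped that of Mock, and none of the 3 differences was called (-0.58 with a 95% interval of -1.60 to 0.45, -0.68 with -1.70 to 0.35, and -0.18 with -1.20 to 0.85). The dKDM2 difference was called with the deposited values (-1.23, limma adjusted p = 0.0408) and with median centring (-1.40, 0.011). For dKDM2, median centring moved the median of all genes by -0.17. Ordered by mean, the groups ran Mock 7.94, PC 7.77, dKDM2 7.37, dRING 7.27, PH 4.81 and PSC 3.35. No difference among the first 4 was called by limma. Eater was higher in dKDM2, dRING and PC than in PH by 2.56, 2.46 and 2.96 (limma adjusted p = 0.0301, 0.00863 and 0.00229). It was also higher in these 3 than on the arrays labelled PSC, by 4.02, 3.92 and 4.42 (limma adjusted p = 8.53e-05, 0.000251 and 4.57e-05). The step from PH to PSC was 1.46 with a 95% interval of 0.14 to 2.78 and was not called (limma adjusted p = 0.118).

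Sr-CI, the class C receptor for bacteria, fell in 1 group. Its Mock signal had a low of 3.75, a median of 7.11 and a high of 8.82. On the arrays labelled PSC it was 2.53, 2.27 and 2.54, with 1 of them at the floor. All lay below every Mock array, as did 4.18% of all genes. The mean was 16.5-fold lower than in Mock (log2 difference -4.05, SE 0.78, limma adjusted p = 0.000565), the 18th lowest difference of 11677 genes. Because the values lie next to the floor, this fold understates the fall.

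In the other groups Sr-CI stayed within the Mock range. It was 7.68, 7.67 and 5.46 after dKDM2 and 6.96, 6.80 and 5.86 after PH depletion, 5.61, 5.48 and 6.01 on the PC arrays, and 4.80, 5.08 and 5.81 on the dRING arrays. None of the 4 differences from Mock was called (limma adjusted p from 0.471 to 1). The dRING difference was -1.26 (limma adjusted p = 0.471). With same-numbered arrays blocked, using Mock replicates 1 to 3, it was -2.52 and was called (limma adjusted p = 0.0354). Without the block the same 3 Mock arrays gave the same difference (limma adjusted p = 0.0284). By mean the order was dKDM2 6.93, PH 6.54, Mock 6.49, PC 5.70, dRING 5.23 and PSC 2.44. Sr-CI was lower on the arrays labelled PSC than in dKDM2 by 4.49 (limma adjusted p = 0.0026) and than in PH by 4.10 (0.00508). The gaps from PC (3.26, 95% interval 1.19 to 5.32, limma adjusted p = 0.0744) and from dRING (2.79, 0.72 to 4.85, 0.177) were not called. With same-numbered arrays blocked both were called (limma adjusted p = 0.00244 and 0.00738).

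The other class C receptors and NimC1 stayed near the floor. Sr-CIII lay between 2.27 and 2.48 on all 29 arrays and was called in none of the 5 comparisons. Sr-CII lay between 2.27 and 2.42 in Mock and was 2.68, 2.55 and 2.29 on the arrays labelled PSC, of which 1 fell inside the Mock range. Its difference of 0.23 was called (SE 0.05, limma adjusted p = 0.000733), and it turned to -0.074 when arrays were centred on their medians. That centring moved the median of all genes by -0.27 for PSC. NimC1, which also marks mature blood cells, lay between 2.27 and 2.59 in Mock and was 2.74, 2.38 and 2.88 on the PC arrays. Only 2 of these lay above the Mock range. The difference of 0.27 was called (SE 0.07, limma adjusted p = 0.024), but not with same-numbered arrays blocked, using Mock replicates 1 to 3 (0.25, limma adjusted p = 0.229), nor against these 3 Mock arrays without the block (0.25, 0.31). It was also lost without PC replicate 1 (0.23, limma adjusted p = 0.156) or without PC replicate 3 (0.16, 0.284). Against Mock, the calls of these 3 genes were at most 1.20-fold, next to the floor.

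Croquemort, the CD36 relative that takes part in uptake of dying cells, was far above the floor on every array and rose in 2 depletions. Its Mock signal had a low of 8.04, a median of 9.18 and a high of 10.41. It was 11.00, 10.98 and 11.51 on the PH arrays, all above every Mock array, as were 9.48% of all genes. The mean rose 3.77-fold (log2 difference 1.92, SE 0.41, limma adjusted p = 0.000709). On the dKDM2 arrays crq was 10.38, 10.75 and 10.57, of which the first lay just under the highest Mock array. The mean rose 2.49-fold (log2 difference 1.32, SE 0.41, limma adjusted p = 0.0156). Both calls were lost against Mock replicates 1 to 3 alone (1.56, limma adjusted p = 0.0662, and 0.96, 0.286) and with the poly-A spikes as a covariate (1.42, 0.29, and 0.94, 0.4). That covariate can hardly be separated from either depletion. The dKDM2 call was also lost with the deposited values (0.81, limma adjusted p = 0.0759) and with median centring (0.64, 0.117). It was lost too with Mock replicates 1 to 7 (1.15, limma adjusted p = 0.0712) and without dKDM2 replicate 2 (1.22, 0.0757).

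Croquemort was not called in the other groups. It was 8.58, 8.83 and 10.49 on the dRING arrays, 8.59, 8.36 and 10.15 on the PC arrays and 9.77, 9.56 and 10.99 on the arrays labelled PSC. In each of these 3 groups the replicate numbered 3 stood more than 1 above the other 2, and Mock replicate 3 was the highest of the 14 Mock arrays. The differences from Mock were 0.05, -0.21 and 0.86 (limma adjusted p = 1, 0.984 and 0.182). The means ran PH 11.16, dKDM2 10.57, PSC 10.11, dRING 9.30, Mock 9.25 and PC 9.03, and no step between neighbours in that order was called. Across wider gaps, crq was lower in dRING and PC than in PH by limma (-1.86, adjusted p = 0.0155, and -2.13, 0.00664). The gap of 1.53 between dKDM2 and PC had a 95% interval of 0.44 to 2.62 and was not called (limma adjusted p = 0.0573).

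Draper, the engulfment receptor for dying cells and axon debris, rose after dKDM2 depletion. Its Mock signal had a low of 8.39, a median of 9.71 and a high of 10.56. It was 10.94, 10.91 and 10.64 on the dKDM2 arrays, all above every Mock array, as were 10.1% of all genes. The mean rose 2.39-fold (log2 difference 1.26, SE 0.34, limma adjusted p = 0.00532). Against Mock replicates 1 to 3 alone, where drpr averaged 10.38, the difference was 0.46 and was not called (limma adjusted p = 0.288). It was not called with the deposited values (0.78, limma adjusted p = 0.0764) or with median centring (0.61, 0.107).

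In 3 other groups drpr lay low in the Mock range, with 1 PC array just below it. It was 8.68, 8.45 and 8.95 on the dRING arrays, 8.63, 8.35 and 9.20 on the PC arrays and 8.87, 8.85 and 8.72 on the arrays labelled PSC. The differences from all 14 Mock arrays were -0.88, -0.84 and -0.76 and were not called (limma adjusted p = 0.16, 0.168 and 0.144). With same-numbered arrays blocked, using Mock replicates 1 to 3, they were -1.68, -1.65 and -1.56 and all 3 were called (limma adjusted p = 0.0115, 0.0088 and 0.00367). The same 3 Mock arrays without the block gave the same differences and calls (limma adjusted p = 0.00674, 0.00574 and 0.00213). Against Mock replicates 4 to 14 alone, an alternative added after the data were seen, the dRING difference was -0.66 (limma adjusted p = 0.181). These calls therefore depended on which Mock arrays were used. Median centring over all Mock arrays also called the PSC difference (-1.14, limma adjusted p = 0.00405). That setting moved the median of all genes by -0.27 for PSC, so part of this difference is that shift. On the PH arrays drpr was 9.95, 9.84 and 8.82, and its difference from Mock was -0.03 (limma adjusted p = 0.994). It was called lower with median centring (-0.85, limma adjusted p = 0.0246) and against Mock replicates 1 to 3 alone (-0.84, 0.0394). For PH, median centring moved the median of all genes by -0.22.

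The depletions differed directly in drpr. It was higher in dKDM2 than in dRING by 2.14 (SE 0.44, limma adjusted p = 0.00163), than in PC by 2.10 (0.00195) and than on the arrays labelled PSC by 2.02 (0.00194). The gap from PH was 1.29, with a 95% interval of 0.40 to 2.19, and was not called (limma adjusted p = 0.14). With same-numbered arrays blocked it was called (limma adjusted p = 0.0237). The groups dRING, PC and PSC, with means of 8.69, 8.73 and 8.81, gave no call among themselves (limma adjusted p = 1 for each comparison). Their differences were -0.03 for dRING from PC (95% interval -0.93 to 0.87), -0.12 for dRING from PSC (-1.02 to 0.78) and -0.09 for PC from PSC (-0.98 to 0.81).

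Hml, the clotting protein and blood-cell marker, rose after PC depletion. Its Mock signal had a low of 3.02, a median of 3.27 and a high of 3.60. It was 4.82, 4.47 and 5.33 on the PC arrays, all above every Mock array, as were 2.71% of all genes. The mean rose 3.00-fold (log2 difference 1.58, SE 0.14, limma adjusted p = 6.47e-08). Since every Mock value lay under 4, where many deposited values repeat, this fold may understate the rise. On the arrays labelled PSC, Hml was 3.47, 3.86 and 4.33, of which 1 fell inside the Mock range, and the mean rose 1.51-fold (0.60, SE 0.14, limma adjusted p = 0.00378). Without PSC replicate 3 this call was lost (0.37, limma adjusted p = 0.0987), and so it was against Mock replicates 1 to 3 alone (0.59, 0.125). With same-numbered arrays blocked, using the same Mock arrays, it was kept (0.59, limma adjusted p = 0.0456).

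In the remaining groups Hml stayed at or under its Mock signal. It was 3.13, 2.94 and 3.19 on the dKDM2 arrays, 3.26, 3.26 and 3.29 on the dRING arrays and 2.81, 2.85 and 3.09 on the PH arrays. The PH difference of -0.38 was called (SE 0.14, limma adjusted p = 0.0388). The deposited value was 3.21 on all 3 PH arrays and recurred on 13 of the 29 arrays, 5 of them Mock, and with deposited values the difference was -0.02 (limma adjusted p = 0.98). Between depletions, Hml was higher in PC than in PH by 1.96 (limma adjusted p = 4.55e-08) and than on the arrays labelled PSC by 0.99 (0.000789). It was lower in dKDM2 than in PC by 1.79 on the log2 scale (limma adjusted p = 4.47e-07) and in dRING than in PC by 1.61 (7.83e-06). The PSC signal was in turn higher than that of dKDM2 and PH by limma (adjusted p = 0.00276 and 0.000438). The gap between dRING and PSC was not called (-0.62, 95% interval -0.99 to -0.25, limma adjusted p = 0.0605).

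Over the 10 direct comparisons between depletions, 26 of 80 tests of the 8 genes were called (32.5%), against 10.3% of the tests over all genes. They came from eater, Sr-CI, crq, drpr and Hml as given above, from NimC1, which was higher in PC than in dKDM2, PH and PSC, and from Sr-CII, which was higher in PSC than in the other 4 groups. The last 2 genes lay near the floor. With same-numbered arrays blocked, Sr-CII was not called between PSC and dRING (-0.20, limma adjusted p = 0.127) or PC (-0.24, 0.0617). By comparison, 1 of 8 was called between dKDM2 and dRING (13.7% of all genes), 3 between dKDM2 and PC (13.1%), 1 between dKDM2 and PH (2.47%) and 5 between dKDM2 and PSC (16.4%). The count was 1, Hml, between dRING and PC (0.223% of all genes), 2 between dRING and PH (16.6%) and 2 between dRING and PSC (3.37%). It was 4 between PC and PH (16.1%), 4 between PC and PSC (3.93%) and 3 between PH and PSC (17.5%).

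The untreated cells varied in their own receptor signals. Among the 5521 genes with a Mock mean above 4, the SD of Sr-CI over the 14 Mock arrays, 1.55, was larger than that of 99.2% of genes. The SD of eater was 0.81 (larger than 79.7% of genes), of drpr 0.65 (61.1%) and of crq 0.59 (52.9%). Eater fell in 2 ranges in Mock, with 6 arrays at 8.66 to 9.06, 8 arrays at 7.06 to 7.75 and nothing between. Mock replicates 1 to 3 averaged 8.81 for eater, 7.75 for Sr-CI, 9.60 for crq and 10.38 for drpr, and replicates 4 to 14 averaged 7.71, 6.15, 9.15 and 9.35. The mean of the first 3 Mock arrays thus stood above that of the other 11 in each of these 4 genes. Using these 3 arrays as the only controls therefore moves each comparison downwards. For crq, Mock replicate 1 itself (9.10) lay under the mean of replicates 4 to 14.

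**Figure D3:**
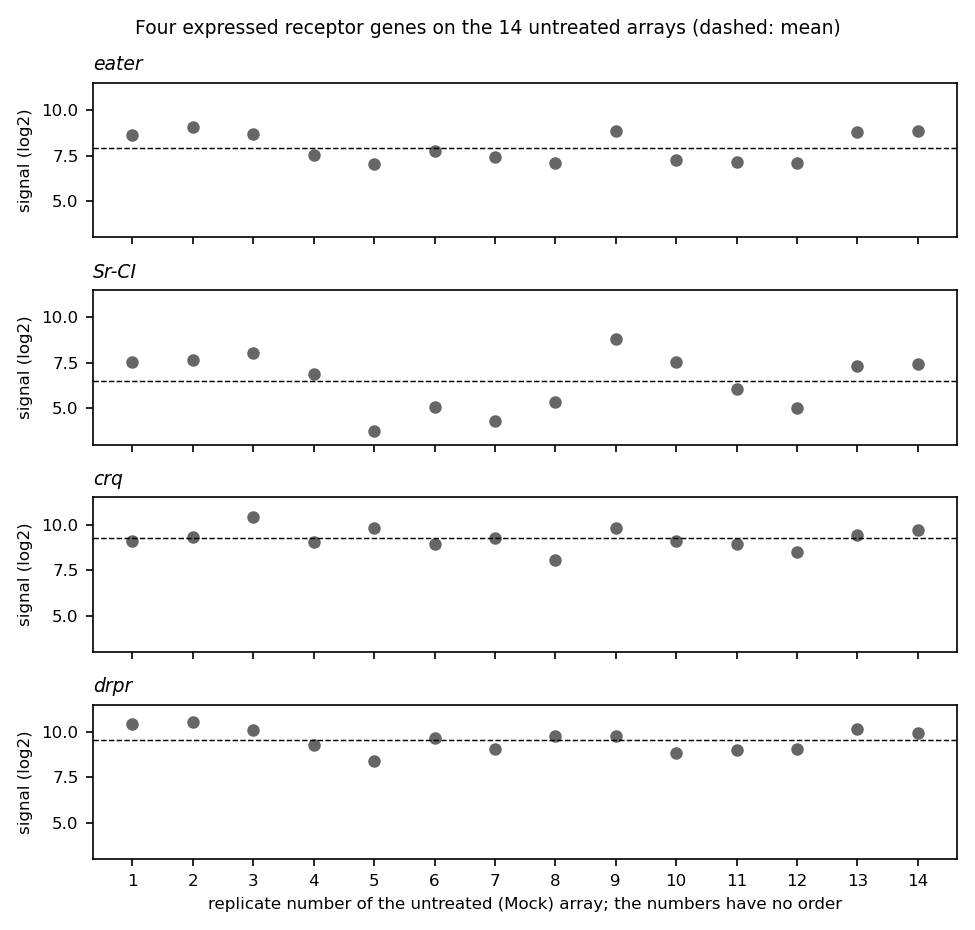
Signal of eater, Sr-CI, crq and drpr (log2, quantile normalized) on each of the 14 untreated arrays by replicate number, with a dashed line at the Mock mean. Sr-CI spans 3.75 to 8.82, and eater lies either at 8.66 to 9.06 or at 7.06 to 7.75.

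Other genes of phagocytosis were counted from lists by role. The alternatives, deposited values among them, were summarized for the 8 members only, not for these genes, the markers or the neighbours. For these counts, the shares of all genes called higher and lower were 18.4% and 14.7% after dKDM2, 2.03% and 0.745% after dRING, 3.32% and 1.22% after PC, 19.7% and 15.4% after PH, and 10% and 6.51% on the arrays labelled PSC. Of 9 other Nimrod genes, all of them tested, NimC4 fell after dKDM2 depletion (-2.46, SE 0.45, limma adjusted p = 0.00014), after PH depletion (-3.15, SE 0.45, 6.67e-06) and on the arrays labelled PSC (-2.92, SE 0.45, 4.97e-05). NimC4, also called six-microns-under, is a receptor for dying cells in embryonic macrophages and glia. In Mock its signal ran from 8.16 to 11.06. It ran from 6.34 to 7.04 after PH and from 6.77 to 7.89 after dKDM2 depletion. On the arrays labelled PSC it ran from 6.19 to 7.83. None of these ranges overlapped that of Mock. The share of all genes with every array below Mock was 12% for PH and 4.18% for PSC. That share is not given here for dKDM2. The NimC4 differences after dRING and PC depletion were -0.55 and -1.07 and were not called (limma adjusted p = 0.706 and 0.195). NimA rose after PH depletion (1.42, limma adjusted p = 2.84e-05), from near the floor. The other 7 Nimrod genes were called in no comparison. All 10 Nimrod genes measured, NimC1 included, lie on chromosome arm 2L, and eater lies on 3R.

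Of 11 tested class B scavenger receptors other than crq, pes was called higher in all 5 depletions. The product of pes, peste, takes part in the uptake of mycobacteria by S2 cells. Its signal was 7.47 to 9.47 in Mock, and its differences from Mock were 1.93 after dKDM2, 1.37 after dRING, 1.29 after PC, 1.98 after PH and 1.04 on the arrays labelled PSC (SE 0.32 in each, limma adjusted p from 3.26e-05 to 0.0279). These 5 comparisons share the Mock arrays and the exposure to dsRNA. The related receptor gene emp rose after dKDM2 depletion (2.19, SE 0.42, limma adjusted p = 0.000191) and after PH depletion (2.03, SE 0.42, 0.00042). Counted over the list, 4 genes were higher and 1 lower after dKDM2, 1 and 0 after dRING, 1 and 0 after PC, 2 and 2 after PH, and 1 and 1 on the arrays labelled PSC. Of these calls, santa-maria (0.50, higher), CG40006 (0.02, higher) and Snmp2 (-0.12, lower) after dKDM2 lay near the floor. Snmp2 after PH depletion (-0.13, lower) did too. Among the lower calls CG3829 was -0.71 after PH depletion (limma adjusted p = 0.00281) and -0.54 on the arrays labelled PSC (0.0366). The list's median difference was 0 in all 5 comparisons, because most of its genes lay at or near the floor.

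Of 7 tested other binding proteins and opsonins, 4 were higher after dKDM2, 0 after dRING, 1 after PC, 5 after PH and 4 on the arrays labelled PSC, and none was lower in any comparison. Tep3, 1 of the 5 after PH depletion, was 0.13 above a Mock signal at the floor (limma adjusted p = 0.0348). Itgbn and scb encode integrin subunits that take part in the uptake of bacteria and dying cells. Itgbn rose after PH depletion from a Mock range of 3.59 to 7.59 to a range of 10.01 to 10.20 (4.47, SE 0.65, limma adjusted p = 7.17e-06) and after dKDM2 depletion (2.78, SE 0.65, 0.00155). On the arrays labelled PSC its difference was -0.22 (limma adjusted p = 0.977). The integrin gene scb rose after PH (2.13, limma adjusted p = 0.00025), after dKDM2 (2.02, 0.000468) and on the arrays labelled PSC (1.27, 0.0361). Dscam1, an immunoglobulin-family protein that binds bacteria, rose after dKDM2 (1.57, limma adjusted p = 0.00199), after PC (1.32, 0.0422), after PH (0.96, 0.0498) and on the arrays labelled PSC (1.46, 0.00771). On the arrays labelled PSC, Tep4, a secreted thioester protein, rose by 1.79 (limma adjusted p = 0.000488) and PGRP-LE, a peptidoglycan sensor, by 1.41 (0.0122). PGRP-LE also rose after dKDM2 (1.25, limma adjusted p = 0.0137) and PH depletion (1.19, 0.0183).

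Genes that act behind the receptors moved in both directions. Of 7 tested genes of engulfment signalling and cytoskeleton, 2 were higher and 1 lower after dKDM2, 0 and 0 after dRING, 1 and 0 after PC, 1 and 1 after PH, and 2 and 2 on the arrays labelled PSC. The gene ced-6 encodes an adaptor that binds Draper. It rose after dKDM2 (1.06, SE 0.18, limma adjusted p = 5.97e-05) and PC depletion (0.87, SE 0.18, 0.00475) and fell on the arrays labelled PSC (-0.62, SE 0.18, 0.0197). Shark, a kinase that acts with Draper, rose on the arrays labelled PSC (0.74, limma adjusted p = 0.049). SCAR, an activator of actin branching, rose after dKDM2 (0.55, limma adjusted p = 0.0209), after PH (1.02, 9.18e-05) and on the arrays labelled PSC (0.91, 0.000842). The profilin gene chic fell on the arrays labelled PSC, from a Mock range of 10.46 to 12.94 to a range of 8.87 to 9.77 (-2.81, SE 0.38, limma adjusted p = 7.01e-06). The gene pall, whose product takes part in clearance of dying cells, fell after dKDM2 (-1.65, limma adjusted p = 0.00535) and PH depletion (-1.20, 0.0383).

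Of 9 tested genes of phagosome maturation, 2 were higher and 2 lower after dKDM2, 3 and 2 after PH, and none in either direction after dRING or PC depletion or on the arrays labelled PSC. The car and Vps16A proteins work in 1 complex that tethers vesicles to lysosomes. After dKDM2 depletion car (1.78, limma adjusted p = 0.000236) and Lamp1 (0.75, 0.0073) rose, while Vps16A (-1.15, 0.0325) and lt (-0.81, 0.0152) fell. After PH depletion Rab2, a small GTPase of vesicle transport, rose by 1.77 (limma adjusted p = 0.016), while Vps16A (-1.80, 0.0012) and Vps33B (-1.73, 0.0156) fell. The genes car (1.08, limma adjusted p = 0.0164) and Lamp1 (0.94, 0.00109) rose there too.

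**Figure D4:**
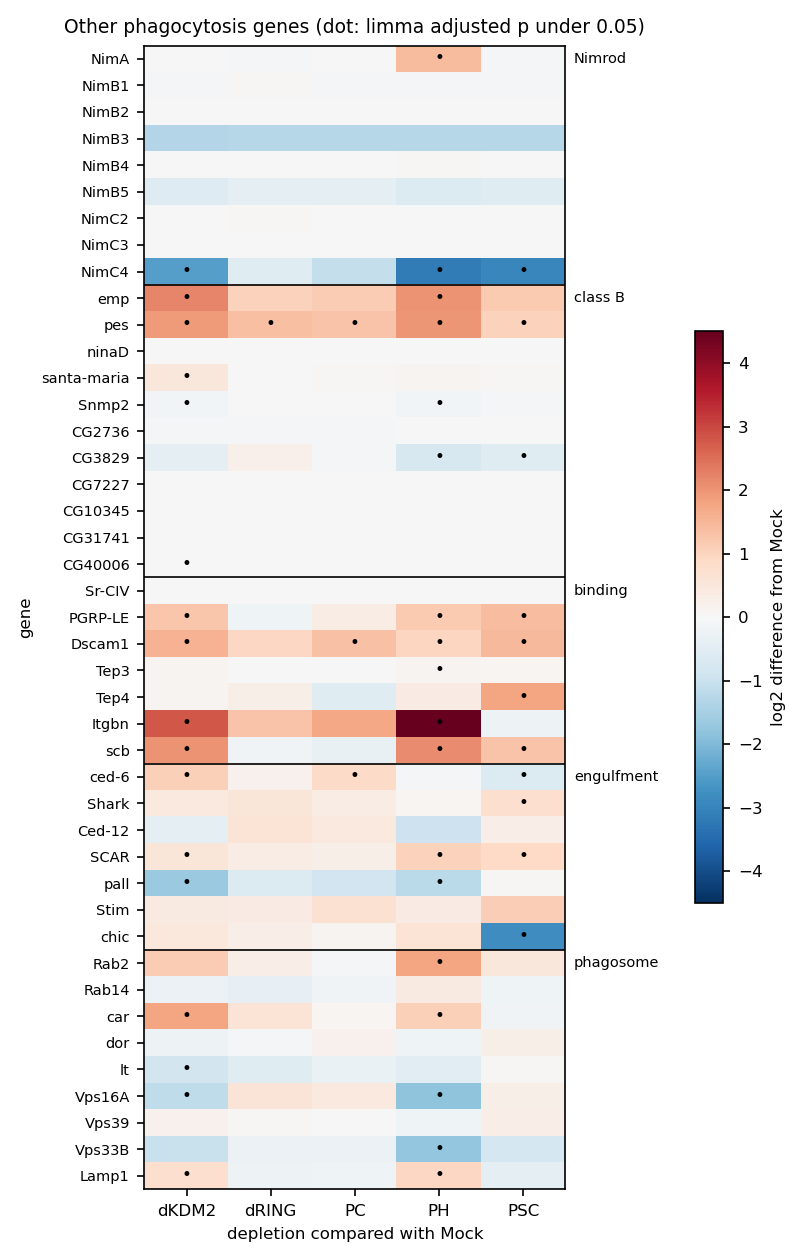
Difference from Mock (log2, colour) of the 43 tested genes of the 5 other phagocytosis lists after each depletion, with a dot for limma adjusted p under 0.05. NimC4 is lower after dKDM2 and PH depletion and on arrays labelled PSC, pes is higher in all 5 columns, and Itgbn is highest after PH depletion.

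Of 7 tested blood-cell markers, 1 was higher and 1 lower after dKDM2 depletion, against 18.4% and 14.7% of all genes. None was called after dRING depletion (2.03% and 0.745% of all genes). The counts were 1 and 0 after PC (3.32% and 1.22%) and 0 and 2 after PH depletion (19.7% and 15.4%). On the arrays labelled PSC they were 1 and 3 (10% and 6.51%). All 7 blood-cell markers (srp, ush, Pxn, He, vkg, Col4a1 and SPARC) had a mean above 4 in every group except PSC, where 6 had. Their summed signal was 13.63 to 15.00 (log2) in Mock, 12.32 to 12.59 on the PH arrays and 12.81 to 13.19 on the arrays labelled PSC, below every Mock array. It was 13.11 to 13.84 after dKDM2, 14.07 to 14.24 after dRING and 14.14 to 14.32 after PC depletion, each within or overlapping the Mock range. The sum was taken on the linear scale, so SPARC weighed most in it (Mock mean 13.85, against 10.36 for srp, the next highest). After PH depletion vkg and SPARC fell (-2.86, limma adjusted p = 0.0101, and -2.67, 2.17e-08), and the other 5 markers were not called. On the arrays labelled PSC, He (-3.39, limma adjusted p = 0.0321), Col4a1 (-2.55, 0.0134) and SPARC (-2.14, 1.16e-06) fell and ush rose (1.82, 0.00102). After dKDM2 depletion, where crq and drpr rose, SPARC fell (-1.74, limma adjusted p = 7.74e-06) and ush rose (1.61, 0.00144). After PC depletion, where Hml rose, ush rose (1.36, limma adjusted p = 0.0334). The part of these markers in the changes of the receptor genes and Hml was not tested. The neuronal marker elav rose after dKDM2 and PH depletion (2.37, limma adjusted p = 1.01e-06, and 2.84, 7.95e-08). The other tested neuronal markers were not called. The gene nSyb was at the floor on every depletion array, and brp stayed near it (2.29 after dKDM2 and 2.47 after PH). The rise of elav came in the groups in which crq rose, and any link between these rises was not tested. All 3 crystal-cell markers had a mean under 4 in each group, with sums of 3.93 to 5.06 over all groups. PPO2 reached 4.53 on a PH array. None of the 3 lamellocyte markers was called in any comparison. The tested markers of muscle, fat body and germline (1, 2 and 3 genes) had group means under 4 throughout, and osk after PH depletion, at 0.04 above Mock, was their only call (limma adjusted p = 0.0315).

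Genes beside the receptor genes were read from the Release 6 annotation. Sr-CI and Sr-CIII are neighbours on 2L, and Sr-CI fell on the arrays labelled PSC while Sr-CIII stayed at the floor there. He, a hemocyte membrane protein, lies next to NimC1 and is given above. Next to crq lie ex and shv. The gene ex rose after dKDM2 (2.42, limma adjusted p = 1.86e-05), dRING (1.60, 0.021), PC (1.78, 0.00572) and PH depletion (1.66, 0.0012), and shv rose on the arrays labelled PSC (1.30, 0.0153). CG2955, the other neighbour of Sr-CI, rose after PH depletion (0.91, 0.0163) from the floor. The neighbours of eater (CG14259 and Jhbp11) and the measured neighbour of Hml (CG8745) were called in no comparison. Of the neighbours of drpr, CG18171 was called on the arrays labelled PSC at 0.03 (limma adjusted p = 0.00152) and CG13931 in no comparison, both next to the floor.

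The genes with the most similar profiles were taken by Pearson correlation over the 29 arrays, as a description, since arrays of 1 group share a treatment. For eater they were CG14629 (r = 0.905), Apoltp (0.898) and arg (0.891), the last encoding arginase. CG14629 averaged 10.30 in Mock, 7.23 after PH depletion and 4.64 on the arrays labelled PSC. For Sr-CI they were C1GalTA (0.807), CG15695 (0.795) and CG5399 (0.792), each of which had its lowest group mean on the arrays labelled PSC. For crq they were Mov10 (0.94), IP3K1 (0.911) and Fmr1 (0.907), each highest after PH depletion. For drpr the highest were CG13907 (0.752), IP3K2 (0.744) and betaTub60D (0.736), and for Hml they were Prip (0.865), Pgant9 (0.861) and Nepl21 (0.85). Prip averaged 3.07 in Mock and 6.28 after PC depletion. The other 3 receptor genes spanned under 1 across the group means and were not given likenesses.

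**Figure D5:**
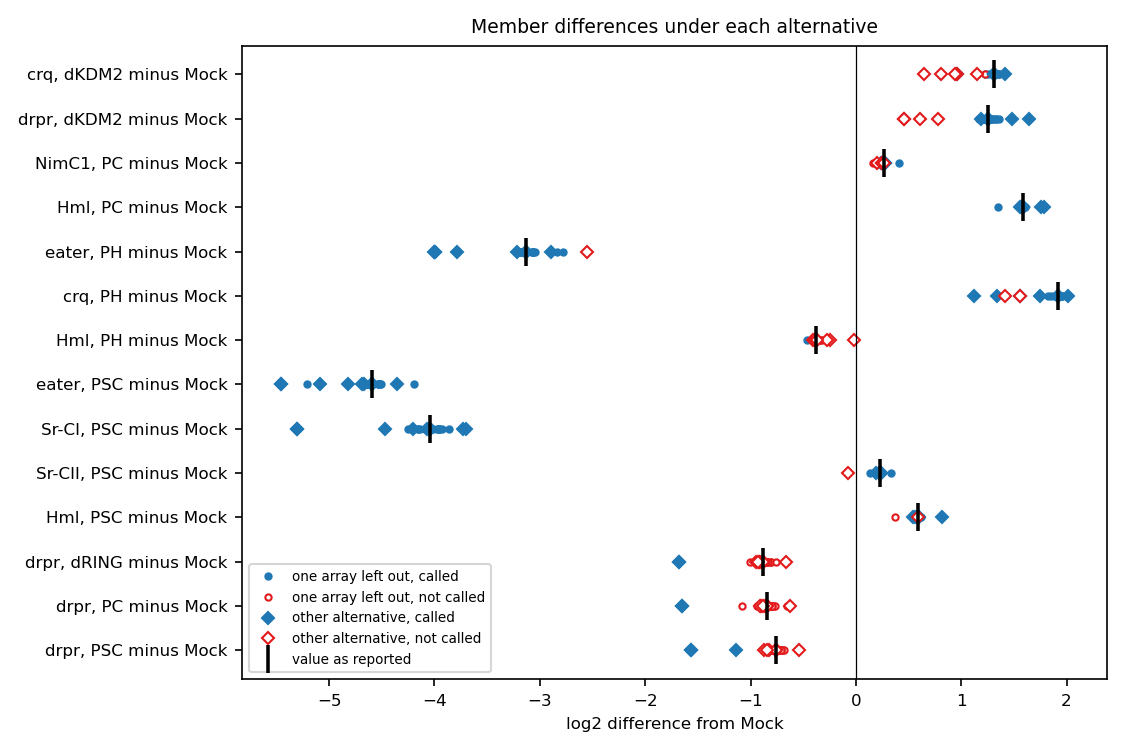
Difference from Mock (log2) of the called members, and of drpr in the dRING, PC and PSC groups, under each alternative, with a black bar for the value as reported and filled marks for limma adjusted p under 0.05. eater and Sr-CI on the arrays labelled PSC and Hml after PC depletion stay called in every setting, while drpr turns to called falls with Mock replicates 1 to 3.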

How the data were processed

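The authors deposited log2 signals, 1 value per probe set and array. Per the submitters' processing notes RMA and GCRMA were used, without a version or a role for either; the genome build is not given in the sources used here. Because array medians differed by more than 0.1 (2.271 to 2.471), the 29 arrays were quantile normalized. Upper quartiles of the deposited values averaged 6.86 for Mock, 6.10 for dKDM2 and 5.90 for PH. Normalization thus raised bright genes on the dKDM2 and PH arrays relative to Mock. Of 18952 probe sets, 183 controls were left out, 13647 named 1 gene, 402 several, and 4720 were not named here; gene numbers matched 13544 to Release 6 plus ISO1 MT, and 103 retained an older symbol. The brightest probe set stood for each gene, and 305 genes that never left the floor were dropped. A limma model (version 3.58.1, R 4.3.3) with 6 group means and an intensity trend was fitted to all arrays. Tests were two-sided, with Benjamini-Hochberg adjustment over 11677 genes. The number of arrays limits the precision.

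The members, lists and naming rule were chosen with earlier results of these data known. The rule named every member, up to 3 called genes of largest change per list and comparison, and the RNAi targets. It also named the 3 most similar genes of members spanning over 1. Further called list genes are given to complete a gene's account or a list's counts. Same-numbered arrays deviated together (correlation above 0.1 over 5490 genes for every number) among the Mock, dRING, PC and PSC groups (0.617 to 0.923). The dKDM2 arrays paired with those of PH (0.332, 0.147 and 0.598). No such pairing was found between Mock and dKDM2 (-0.11 to 0.0608) or PH (0.0515 to 0.152), so blocked values stand beside results of the groups that pair, where they change a call. Alternatives are in the closing section. The fit was tested on simulated data. The annotation gave names, chromosome arms and neighbours, and no sequence or coordinate is printed.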

Additional observations from a re-analysis of the deposited data

How the results depend on the processing

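The calls of eater and Sr-CI on the arrays labelled PSC and of Hml after PC depletion were kept in all 28 settings run (eater -5.45 to -4.20, Sr-CI -5.31 to -3.70, Hml 1.35 to 1.79). With arrays left out in turn, members called ranged from 1 to 2 for dKDM2, 0 to 0 for dRING, 1 to 2 for PC, 2 to 3 for PH and 3 to 4 for PSC, and from 22 to 28 between depletions. For dKDM2 the count of 2 became 1 with deposited values (eater, lower), 0 with Mock replicates 1 to 3 alone, 1 with Mock replicates 1 to 7, 1 with the poly-A spike covariate and 1 with the replicate block (crq, limma adjusted p = 0.0488; drpr 0.46, 0.299). With median centring dKDM2 had 3 calls, all lower (eater -1.40, NimC1 -0.20 and Sr-CIII -0.18), in place of crq and drpr, and PSC had 6, of which 5 were lower. For dRING the count of 0 became 2 both with Mock replicates 1 to 3 alone and with the block. For PC the count of 2 became 1 with median centring, 1 with a filter on dim genes (above 4 on at least 3 arrays), which removed NimC1, Sr-CII and Sr-CIII from the test, and 1 with only the groups compared. With Mock replicates 1 to 3 alone, and with the block, the 2 PC calls were Hml, higher, and drpr, lower. For PH the count of 3 became 6 with median centring and 0 with the spike covariate. Spikes on the dKDM2 and PH arrays lay above those of every Mock array, so this covariate can hardly be separated from these depletions. With the block, drpr after PH depletion was -0.84 (limma adjusted p = 0.0471) and Hml was not called (0.125). The 26 calls between depletions became 11 with only the groups compared and 14 with the spike covariate. They became 30 with the block. In the comparisons between depletions whose numbers pair, 8 of 32 tests were called without the block and 9 with it, and 5 calls differed. Median centring moved the median of all genes by -0.17 for dKDM2, -0.22 for PH and -0.27 for PSC. It turned Sr-CII on the arrays labelled PSC to -0.074. Under it, the lower calls of NimC1 and Sr-CIII for dKDM2, PH and PSC, and of Sr-CII for PH, lay near these shifts. They therefore show no fall of their own. The Hml fall after PH depletion was lost without Mock replicate 6 or 12 (limma adjusted p = 0.0519 and 0.0513) or PH replicate 1 or 2 (0.176 and 0.149). Other causes of these shifts were not tested. The floor limits what NimC1, Sr-CII and Sr-CIII can show. The mean over probe sets left members as they were, since each has 1 probe set.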
